A study of Mus musculus with 6 samples.

Results

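Irradiated macrophages that had been polarized with interleukin-4 (RM2) were compared with irradiated macrophages that had not been polarized (RM0), gene by gene, by RNA sequencing. The comparison used 2 of the 6 libraries of the series, 1 for each condition, and took the genes with 10 or more counts in at least 1 of the 2 libraries. This left 11748 of the 24062 genes in the tables. The cells were RAW264.7, a virus-transformed mouse macrophage line, although the labels also name bone marrow as the tissue. RM2 cells received 20 ng/mL IL-4 for 24 h before a dose of 10 Gy of gamma radiation from a cesium source, and RNA was taken 24 h after the exposure. RM0 cells received the same dose and the same 24 h of incubation without a polarizing agent. The matching non-irradiated libraries were M0 (no agent) and M2 (20 ng/mL IL-4 for 24 h), and the M1 and RM1 libraries received 100 ng/mL LPS with 20 ng/mL IFN-γ. RNA of 5 wells was combined for every library, so no condition has a measured spread between wells and no difference between RM2 and RM0 carries a p-value. Whether IL-4 stayed in the medium after irradiation, and whether M0 and M2 were also kept for the additional 24 h, is not given in the sources used here.

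Interleukin-4 binds the IL-4 receptor alpha chain, which pairs with the common gamma chain or with the IL-13 receptor alpha 1 chain and signals through the kinases JAK1, JAK3, TYK2 and JAK2 to the transcription factor STAT6. In mouse macrophages STAT6 induces a program called alternative or M2 activation, of which arginase 1, the lectin receptors Mrc1, Clec7a and Clec10a, and the secreted proteins Retnla and Chil3 are the usual markers. LPS and interferon-gamma drive a different program, with inducible nitric oxide synthase, inflammatory cytokines and interferon-stimulated genes.

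The libraries held from 17894937 to 18870516 counts, with 18660435 in RM0 and 18154365 in RM2. Counts were scaled by the TMM method, whose factors were 1.045 for RM0 and 1.093 for RM2, and each log2 ratio used a prior count of 2, which pulls the ratios of rare genes toward 0. Intervals at 95% come from the exact Clopper-Pearson limits on how a gene's counts divided between the 2 libraries, turned into log2 ratios, and they cover counting error only. The defining genes of macrophages were abundant, as the label requires. Lyz2 (lysozyme) had 580239 counts in RM0 and 498305 in RM2, Csf1r (the receptor of the growth factor M-CSF) 14190 and 12442, Cd68 14990 and 12760, and Itgam (CD11b) 31782 and 29244. No B cell and no mast cell, basophil or eosinophil marker reached 10 counts in RM0 or RM2.

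Among irradiated cells, 192 genes were at least 2-fold higher with IL-4 (1.63% of the genes measured) and 114 were at least 2-fold lower (0.97%), together 2.6%. The genes highest with IL-4 were the arginine enzyme gene Arg1, the growth factor gene Igf1, the IL-13 decoy receptor gene Il13ra2 and the cationic amino acid transporter gene Slc7a2. Most genes differed little, since the central 50% of all log2 ratios lay between -0.22 and 0.23 and the central 90% between -0.54 and 0.65. The genes past 2-fold were mostly rare. Only 68 of the 192 and 33 of the 114 had 50 or more counts in the higher library, and of the 4005 genes with 1000 or more counts in at least 1 of the 2 libraries, 8 were 2-fold higher and 6 were 2-fold lower. The counting interval lay above 0 for 160 of the 192 higher genes and below 0 for 83 of the 114 lower genes. With RNA from whole wells, more RNA per cell and more cells that express a gene cannot be told apart.

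**Figure D1:**
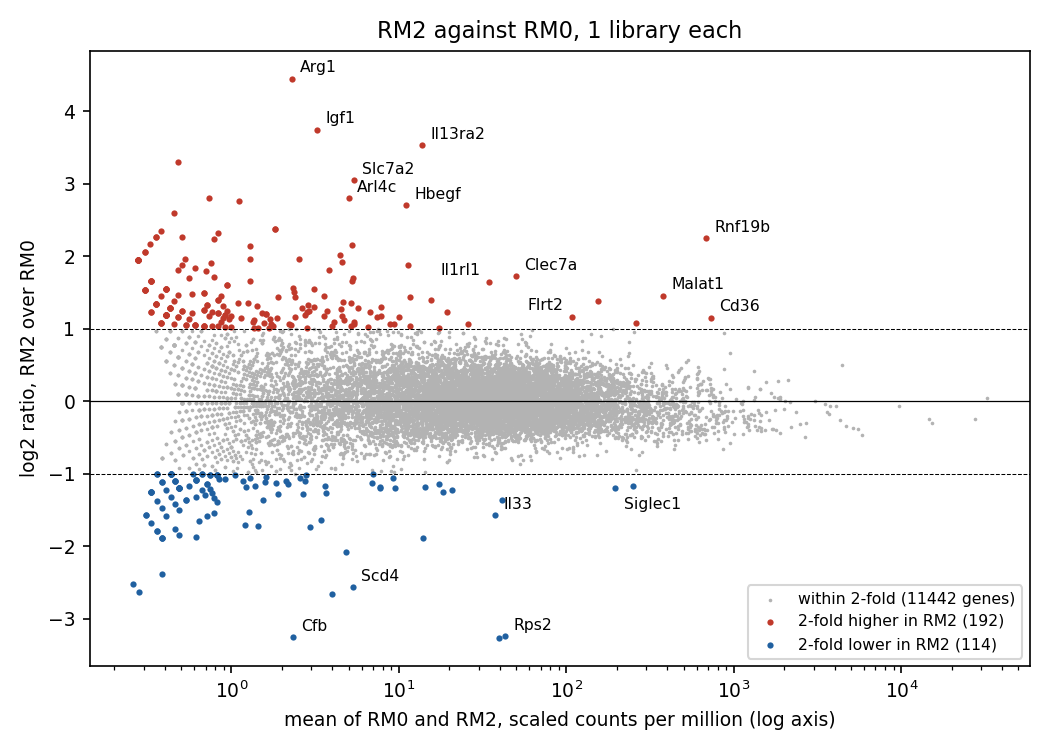
Log2 ratio of RM2 over RM0 against the mean level of the gene in the 2 libraries, in scaled CPM (counts scaled to library size) on a log axis. Each point is 1 of the 11748 genes measured, red points are the 192 genes at least 2-fold higher in RM2 and blue points the 114 at least 2-fold lower, dashed lines mark 2-fold, and most colored points sit at low levels on the left.

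Arg1 (NM_007482, chromosome 10 of mm10, 24915207 to 24927470) encodes arginase 1, which breaks arginine down to ornithine and urea. It had 0 counts in M0, 31 in M2, 2 in RM0 and 89 in RM2. The ratio of RM2 to RM0 was 43.7 with a counting interval from 11.8 to 367, wide because RM0 had only 2 counts, and the log2 ratio with the prior count was 4.45. The gene was thus seen almost entirely in the libraries with IL-4, at a low level even there. Slc7a2 (NM_001044740, chromosome 8, 40862367 to 40922070), which carries arginine into the cell, had 11, 55, 21 and 192 counts in M0, M2, RM0 and RM2. Its log2 ratio in the irradiated pair was 3.05 (interval 2.52 to 3.89). Adc (now Azin2), which encodes a regulator of polyamine synthesis, had 152, 383, 167 and 451 counts in the same order and a log2 ratio of 1.40.

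The 12 highest genes also included cytokine receptor and growth factor genes. Il13ra2 (NM_008356, chromosome X, 147383478 to 147403832) encodes a receptor that binds IL-13 without the signal of the usual receptor. It had 54 counts in M0, 257 in M2, 41 in RM0 and 505 in RM2, a ratio of 12.1 in the irradiated pair (log2 3.53, interval 3.14 to 4.09). Igf1 (NM_001111274, chromosome 10, 87859056 to 87937047), insulin-like growth factor 1, had 18, 42, 7 and 122 counts and a log2 ratio of 3.74 (3.01 to 5.44). Both IL-4 libraries were above both libraries without it for these genes. Hbegf, a ligand of the EGF receptor made as a membrane precursor, had 62, 189, 56 and 382 counts and a log2 ratio of 2.70 (2.34 to 3.18). Il20rb, a subunit of the receptors of IL-20 family cytokines, had 25, 67, 33 and 142 counts (log2 2.01, 1.53 to 2.67).

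Arl4c, a small GTPase gene, had 16, 91, 23 and 176 counts and a log2 ratio of 2.80 (2.28 to 3.61). Lipn, of the acid lipase family, had 32, 62, 36 and 171 counts (2.16), and Clca5, of the calcium-activated chloride channel regulator family, 18, 35, 19 and 81 (1.95). All of these genes had their highest count in RM2 and their next highest in M2. The remaining entries of the 12 highest, Gm11710 and Gm11711, are listed over the same 75 bases on chromosome 11 with identical counts of 6, 12, 10 and 62, so they hold the same reads and stand for 1 measurement.

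Rnf19b stood apart as the most abundant gene of this group. It encodes a RING-type E3 ubiquitin ligase, lies on chromosome 4 (NM_029219, 129058271 to 129084526), and had 3710 counts in M0, 14303 in M2, 4648 in RM0 and 22444 in RM2. The log2 ratio was 2.25, a ratio of 4.75 with an interval of 4.6 to 4.9, and it was 2.47 once the trend with GC content described below was removed. Among other genes with 1000 or more counts, Clec7a (dectin-1, a receptor for fungal beta-glucan) had 444, 847, 452 and 1526 counts and a log2 ratio of 1.73. Il1rl1, the receptor of IL-33, had 290, 711, 324 and 1038 counts (1.65).

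The long noncoding RNA Malat1 had 5041, 8136, 3924 and 10941 counts and a log2 ratio of 1.45. The scavenger receptor gene Cd36, with 6717, 11165, 8825 and 19929 counts, had a log2 ratio of 1.15, Flrt2 1.17 and the integrin gene Itgav 1.08. These 3 genes have transcripts of low GC content, 38.4% for Cd36, 41.8% for Flrt2 and 43.5% for Itgav, and they were below 2-fold once the GC trend was removed, at 0.73, 0.87 and 0.86. Rsbn1 (0.99) and Rnf24 (0.98) completed the 10 highest of the abundant genes and were not past 2-fold.

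**Figure D2:**
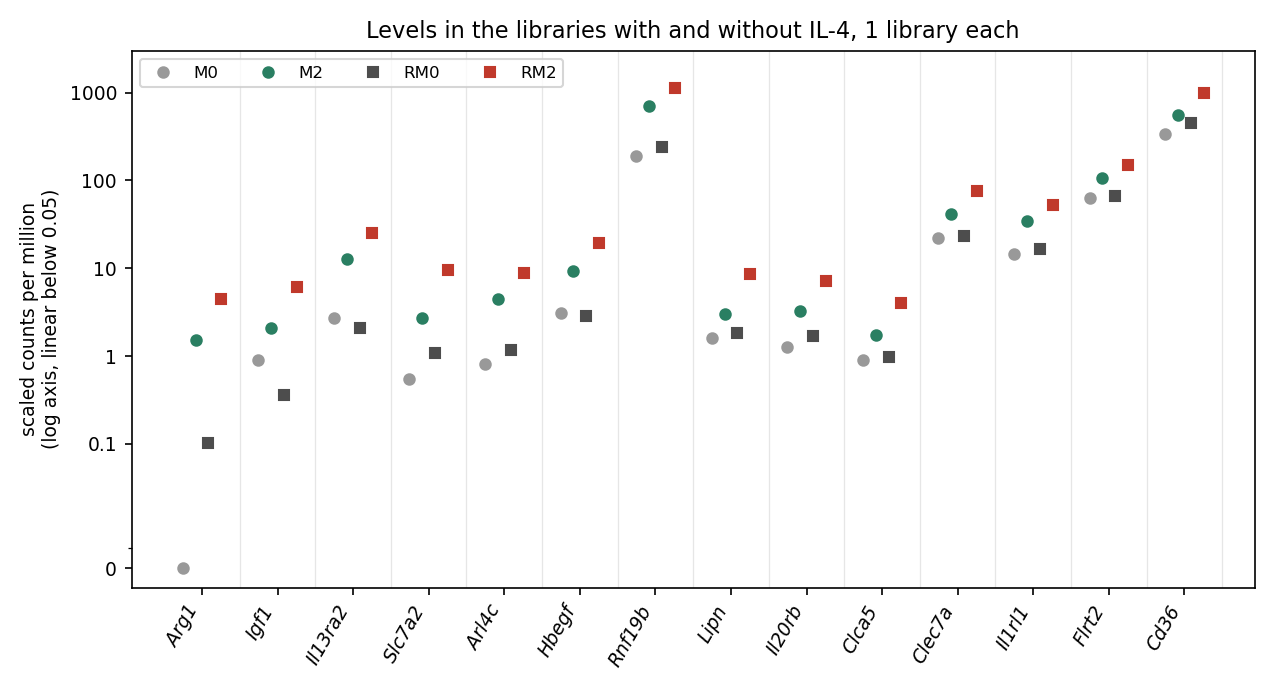
Level of the highest genes and of 4 abundant genes in the 4 libraries with and without IL-4, in scaled CPM (counts scaled to library size) on a log axis that is linear below 0.05. Circles are non-irradiated and squares irradiated libraries, green and red symbols are the libraries with IL-4 (M2 and RM2), grey symbols those without (M0 and RM0), each symbol is 1 library, and RM2 is the highest symbol for every gene shown.

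The genes of the alternative activation program were divided. Of 47 found in the tables, 28 were measured, and 8 of the 28 were 2-fold higher in RM2 and none was 2-fold lower, against 1.63% and 0.97% of all genes. This and the other gene lists were written with earlier results of these data known, so such shares are not independent of the data. The 8 included Arg1, Slc7a2, Hbegf, Clec7a, Itgax, Clec10a and Egr2, and each of the 8 stayed past 2-fold after removal of the GC trend. Arg1 and Itgax passed the minimum of 10 counts only through the IL-4 library. The median of the 28 was 0.18, beside -0.01 for all genes. Clec10a, a galactose-type lectin, had 42, 101, 51 and 128 counts in M0, M2, RM0 and RM2 (log2 1.27, interval 0.82 to 1.80), and Egr2, a zinc finger transcription factor, had 101, 212, 111 and 238 (1.06, 0.75 to 1.41).

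Other well-known members of the program were not seen. Of the 47 genes, 16 had 3 counts or fewer in both RM0 and RM2, among them Retnla, Chil3, Chil4, Ccl17, Cd163, Cd209a and Fn1 with 0 in both. Pparg had 0 counts in RM0 and 1 in RM2, and a total of 3 counts is the limit that a count of 0 allows here. The mannose receptor gene Mrc1 had 10, 6, 5 and 12 counts, with an interval of -0.37 to 3.10 that included 0. Several measured members had close counts in RM0 and RM2. The chemokine gene Ccl22 had 802 and 827, the transcription factor gene Klf4 670 and 680, the scavenger receptor gene Msr1 8423 and 9216, and Il10 330 and 344. Among members between these and 2-fold, Flt1 was at 0.56 (550 and 827 counts), Irf4 at 0.51 (38 and 56), Tfrc at 0.35 and Il1rn at 0.28.

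Of 22 measured genes of the IL-4 receptor and its signal chain, 1 was 2-fold higher and none 2-fold lower, beside 1.63% and 0.97% of all genes. The median log2 ratio was -0.12 and turned to 0.02 with the GC trend removed. The gene past 2-fold was Cish, a feedback inhibitor of cytokine receptors that STAT factors induce, with 97, 195, 94 and 356 counts in M0, M2, RM0 and RM2 (log2 1.87, interval 1.57 to 2.24). The receptor chain gene Il4ra had 672, 600, 800 and 546 counts, a log2 ratio of -0.57 in the irradiated pair. Il2rg, the common gamma chain, was at -0.04 and Il13ra1 at -0.35. Of the kinases, Jak1 was at 0.10, Jak2 at 0.55, Jak3 at -0.63 and Tyk2 at -0.24, and Stat6 itself, with 3987 and 3556 counts, was at -0.19. The feedback inhibitor Socs1 had 18, 35, 24 and 26 counts in the 4 libraries, so it was higher with IL-4 in the non-irradiated pair (log2 0.85, interval 0.06 to 1.83) and at 0.08 in the irradiated pair. Socs2 had 13, 16, 13 and 19 counts, too few to set it apart from Cish, and Socs3 had 12704, 14790, 14248 and 15132 (0.06).

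**Figure D3:**
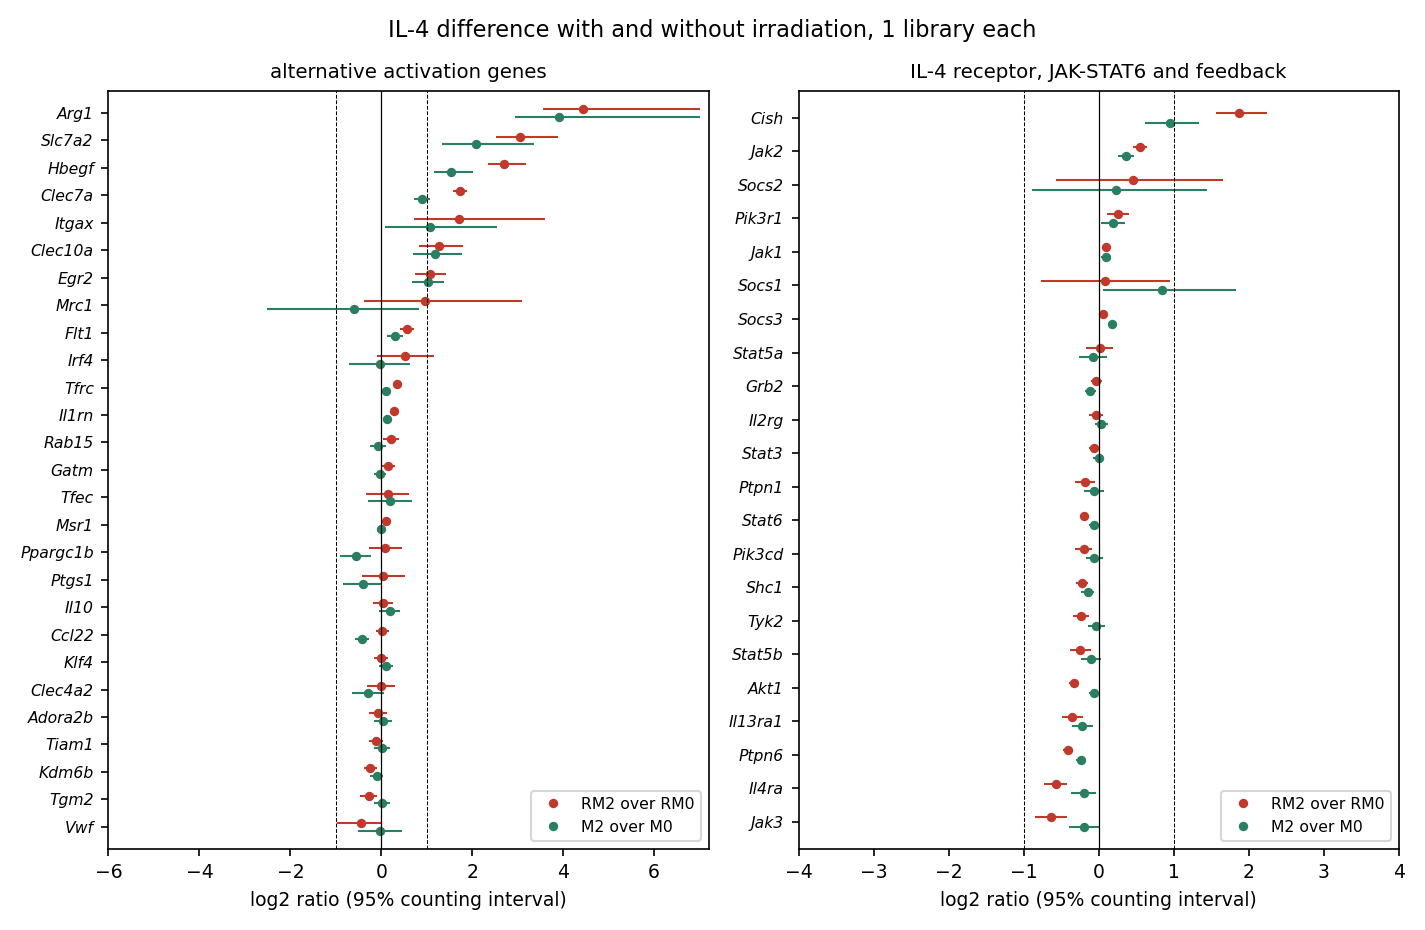
Log2 ratios of measured alternative activation genes (left) and of the IL-4 receptor, JAK-STAT6 and feedback genes (right), RM2 over RM0 in red and M2 over M0 in green, each from 1 library a condition, with 95% counting intervals as lines that are cut at the edge of the panel for Arg1. Arg1, Slc7a2 and Hbegf are farthest right on the left panel, and Cish is the only gene of the right panel past the dashed line of 2-fold.

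STAT factors bind palindromic sites, in which TTC and GAA stand on either side of a spacer. STAT6 prefers a spacer of 4 bases, and several STAT factors share the form with 3. Both forms were searched with any base in the spacer, and each reads the same on both strands. RefSeq promoter sequences (GRCm38.p6) were searched over the 250 bases before each transcript start. At least 1 match with the spacer of 4 was found in 5.85% of all 32851 windows, in 5.63% of 9234 measured genes with a window, in 14 of 129 genes 2-fold higher in RM2 (10.9%) and in 3 of 83 genes 2-fold lower (3.61%). Among the higher genes with 50 or more counts it was 2 of 49 (4.08%), so the higher share was found among genes with fewer counts. The form with a spacer of 3 was found in 7.02% of all windows, 7.14% of measured genes, 8.53% of the higher and 9.64% of the lower genes. Taken next were the 18 genes that are among the 12 highest or are called members of the IL-4 signal and alternative activation lists. Windows were at hand for 11 of them. Arg1, Slc7a2, Hbegf, Clec7a and Clec10a were among those without a window, so nothing is known here of their promoters. Of the 11, only 1, Itgax (the integrin CD11c), held a match of either form. That window is shown because it is the only match among these genes. It lies on the plus strand at chr7:128129300-128129549, the match is in capitals, and it runs from 127 to 118 bases before the start.
Itgax: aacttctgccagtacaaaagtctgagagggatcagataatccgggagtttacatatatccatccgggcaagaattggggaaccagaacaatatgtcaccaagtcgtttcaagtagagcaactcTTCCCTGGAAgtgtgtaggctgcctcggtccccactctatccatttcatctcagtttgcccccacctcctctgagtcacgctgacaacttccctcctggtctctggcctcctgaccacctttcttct
Itgax had 9 counts in M0, 22 in M2, 6 in RM0 and 25 in RM2. A match is a description of the letters and not a measured binding site.

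Genes lower with IL-4 included several of innate defense. Cfb, complement factor B, had 32 counts in M0, 16 in M2, 84 in RM0 and 7 in RM2, a log2 ratio of -3.26 (interval -4.97 to -2.50). Slfn1, of the Schlafen family, had 58, 31, 136 and 20 counts (-2.67), and Slamf7, a receptor of the SLAM family, had 66, 21, 90 and 26 (-1.74). Il33, the cytokine whose receptor gene Il1rl1 was higher, had 235, 163, 1093 and 373 counts (-1.57, -1.75 to -1.41). Its count in RM0 was far above those of the 3 other libraries. Slpi, a secreted inhibitor of leukocyte proteases, had 860, 648, 1164 and 457 (-1.37), and the noncoding RNA U90926 26, 25, 153 and 35 (-2.09). Gamt, the second enzyme of creatine synthesis, had 78, 57, 75 and 30 counts (-1.29), and was just below 2-fold after GC removal, at -0.99.

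Some of the lowest entries share sequence with other genes, and Mir7678 lies beside one. Mir682 had 424, 301, 1395 and 145 counts (log2 -3.27), but the listed 96-base hairpin lies in a pseudogene of a ribosomal protein gene, and 65.3% of its 25-base windows also occur in Rpl37a transcripts. Rps2, a ribosomal protein gene, had 1503, 511, 1515 and 161 counts (-3.24). Its transcript shares 74.1% of such windows with the pseudogene Rps2-ps10, so how the counting treated reads with several positions bears on both values. Mir7678 (272, 213, 427 and 116 counts, -1.89) lies just past the listed end of Slpi on the same strand and follows it in counts. Of its 47 windows of 25 bases, 0 occur in Slpi. Scd3 (44, 60, 102 and 32, -1.63) and Scd4 (43, 116, 179 and 29, -2.56) belong to the fatty acid desaturase family of Scd1 and Scd2. At most 10.0% of the 25-base windows of Scd3 and 6.15% of those of Scd4 occur in another of these genes. The values of Mir682 and Rps2 are uncertain as measures of the named genes.

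Among abundant genes, Siglec1, the sialic acid receptor CD169, had 3193 counts in M0, 1945 in M2, 5334 in RM0 and 2357 in RM2 (log2 -1.20, interval -1.27 to -1.13). Irf7, a transcription factor of the type I interferon response, had 5965, 4470, 6777 and 3050 (-1.18, -1.24 to -1.12). Both have GC-rich transcripts, 56.7% and 55.4%, and were at -0.98 and -0.99 with the GC trend removed. The calcium-binding protein gene S100a8 had 4580, 2846, 6667 and 3492 counts (-0.96), and with the trend removed it was past 2-fold, at -1.16. The lipoxygenase gene Alox5 (-0.87), Themis2 (-0.82) and the protease gene St14 (-0.81) followed.

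Interferon-stimulated genes were lower in RM2, with 5 of 34 measured past 2-fold, none higher, and 29 of 34 below 0, beside 0.97% and 50.9% of all genes. The 5 were I830012O16Rik (now Ifit3b, with 14 and 4 counts and measured only through RM0), Oasl2, Zbp1, Irf7 and Mx2, and 3 of them stayed past 2-fold without the GC trend. The median of the list was -0.35 and stayed at -0.38 without the trend. Oasl2 had 102 counts in RM0 and 42 in RM2 (log2 -1.26), and Zbp1, a nucleic acid sensor, 386 and 171 (-1.19). Of 21 markers of LPS and interferon-gamma activation, 3 were 2-fold lower and none higher, 16 were below 0 and the median was -0.48. The 3 past 2-fold, Fpr2 (12 and 2 counts), Ccr7 (37 and 10) and Gbp5 (12 and 5), had few counts, Fpr2 and Gbp5 were measured only through RM0, and the interval of Gbp5 reached 0.32. The summed level of the list was higher in RM2, 7580 scaled CPM against 6650 in RM0. The abundant Ptgs2 was at 0.50 (71098 and 102108 counts) and Il6 was at 0.73 (134 and 227 counts). Ccl5, a chemokine of T cells and monocytes, had 719 and 426 counts (-0.78).

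Receptors for chemoattractants had 4 of 13 measured genes 2-fold lower, none 2-fold higher, and a median of -0.55, beside 0.97% of all genes 2-fold lower. Fpr2 and Fpr1 passed the minimum of 10 counts only through RM0. Cx3cr1, the fractalkine receptor, had 526, 327, 572 and 247 counts in M0, M2, RM0 and RM2 (log2 -1.23, interval -1.46 to -1.02), and the others past 2-fold were Fpr2, Ccr7 and Fpr1 (14 and 5 counts, with an interval that reached 0.05). Of the chemokines themselves, none of 15 was past 2-fold, with Cxcl3 at -0.75 (787 and 475 counts, and just past 2-fold without the GC trend) and Ccl7 at 0.71 (330 and 550). Of 7 MHC class II genes, 2 with few counts were lower, H2-DMb2 (13 and 3) and H2-Ob (12 and 5), both measured only through RM0, while the median was 0.20. Cybb, the catalytic subunit of the phagocyte oxidase, was at -0.74 (-1.02 without the GC trend) and the Fc receptor gene Fcgr3 at -0.77. They belong to a list of macrophage identity genes of which none of 22 was past 2-fold, beside 2.6% of all genes. In that list 19 were below 0, beside 50.9% of all genes. Its median was -0.25, or -0.20 without the GC trend, and it was -0.185 in M2 against M0.

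Secreted growth factors and matrix genes included 5 of 27 measured genes 2-fold higher and 1 lower, beside 1.63% and 0.97% of all genes. Igf1, Timp1, Mmp13 and Mmp12 passed the minimum of 10 counts only through RM2, where they were high. Besides Igf1 and Hbegf, the higher genes were Timp1, an inhibitor of matrix proteases (4 counts in RM0 and 40 in RM2), and the matrix metalloproteinases Mmp13 (3 and 18) and Mmp12 (5 and 25). The lower gene was Csf2, which encodes GM-CSF (23 and 10). The median of this list was -0.23 and -0.04 without the GC trend. Below 0 were 15 of the 27, beside 50.9% of all genes, while Igf1, Timp1 and Hbegf were far above. Of 18 genes of PPAR gamma and lipid handling, 2 were higher, Cd36 and Olr1, the receptor of oxidized LDL (22 and 70 counts, log2 1.56). Olr1 stayed past 2-fold without the GC trend.

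Metabolic and housekeeping lists had small medians below 0, beside 50.9% of all genes below 0. Of 20 glycolysis genes, 19 were below 0 and none was past 2-fold, with a median of -0.41 that became -0.26 without the GC trend. Gpi1, glucose phosphate isomerase, had 18487 and 13154 counts (-0.52), and Eno2, the lowest of the list, was at -0.61. Lysosome genes had a median of -0.25 (27 of 33 below 0), nuclear-encoded respiratory chain genes -0.20 (63 of 81), cytosolic ribosomal protein genes -0.19 (67 of 77), cholesterol synthesis genes -0.14 (13 of 22), exosome machinery genes -0.13 (17 of 24), proteasome genes -0.12 (25 of 38) and NRF2 and iron genes -0.12 (12 of 19). Rps2 was the only gene past 2-fold in these 7 lists. Without the GC trend the medians of the 7 lists were, in the same order, -0.13, -0.19, -0.18, -0.13, -0.08, -0.14 and -0.06. In M2 against M0 the median of the exosome machinery genes was 0.01. Immediate early genes had a median of -0.10, with Egr2 alone past 2-fold of 25, p53 targets -0.07 and osteoclast lineage genes 0.04, with none past 2-fold of 25 and 23, and these 3 medians changed sign when the GC trend was removed (0.12, 0.03 and -0.03). The myosin genes Myo5b and Myh10 had 0 and 1 counts in RM0 and 2 and 3 in RM2, which gives no fold change at this depth. Mitochondrially encoded genes were not analysed here.

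Mitosis genes lay above 0 in 25 of 30 cases, beside 49.1% of all genes, with a median of 0.31 and none past 2-fold. The median was 0.21 without the GC trend, and it was 0.24 in M2 against M0. Kif11, a spindle motor, had 193, 239, 94 and 174 counts in M0, M2, RM0 and RM2 (log2 0.85, interval 0.49 to 1.24), and Ccnb2, a mitotic cyclin, 68, 106, 31 and 56 (0.79). The levels in RM2 were thus above RM0 but below M0 for both genes. DNA replication genes had a median of 0.04 and replication-dependent histone genes 0.10. Zinc finger genes named Zfp, a family of mostly transcriptional repressors, were above 0 for 232 of 304 genes, with 15 at least 2-fold higher and 1 lower, and a median of 0.29, beside 49.1%, 1.63% and 0.97% of all genes. Their transcripts are poor in G and C, at a median of 43.8%, and without the GC trend 4 were past 2-fold and the median was 0.14. The 15 included Zfp934 (3 counts in RM0 and 13 in RM2) and Zfp273 (2 and 10), which passed the minimum of 10 counts only through RM2. Nuclear-retained noncoding RNAs had 3 of 8 genes past 2-fold, Malat1, Kcnq1ot1 and Mir17hg, beside 1.63% of all genes, and a median of 0.61. Without the GC trend the median was 0.46 and Mir17hg, at 0.95, was no longer past 2-fold. Neat1, the scaffold of paraspeckles, was at 0.93, with 11604 counts in RM0 and 22544 in RM2.

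**Figure D4:**
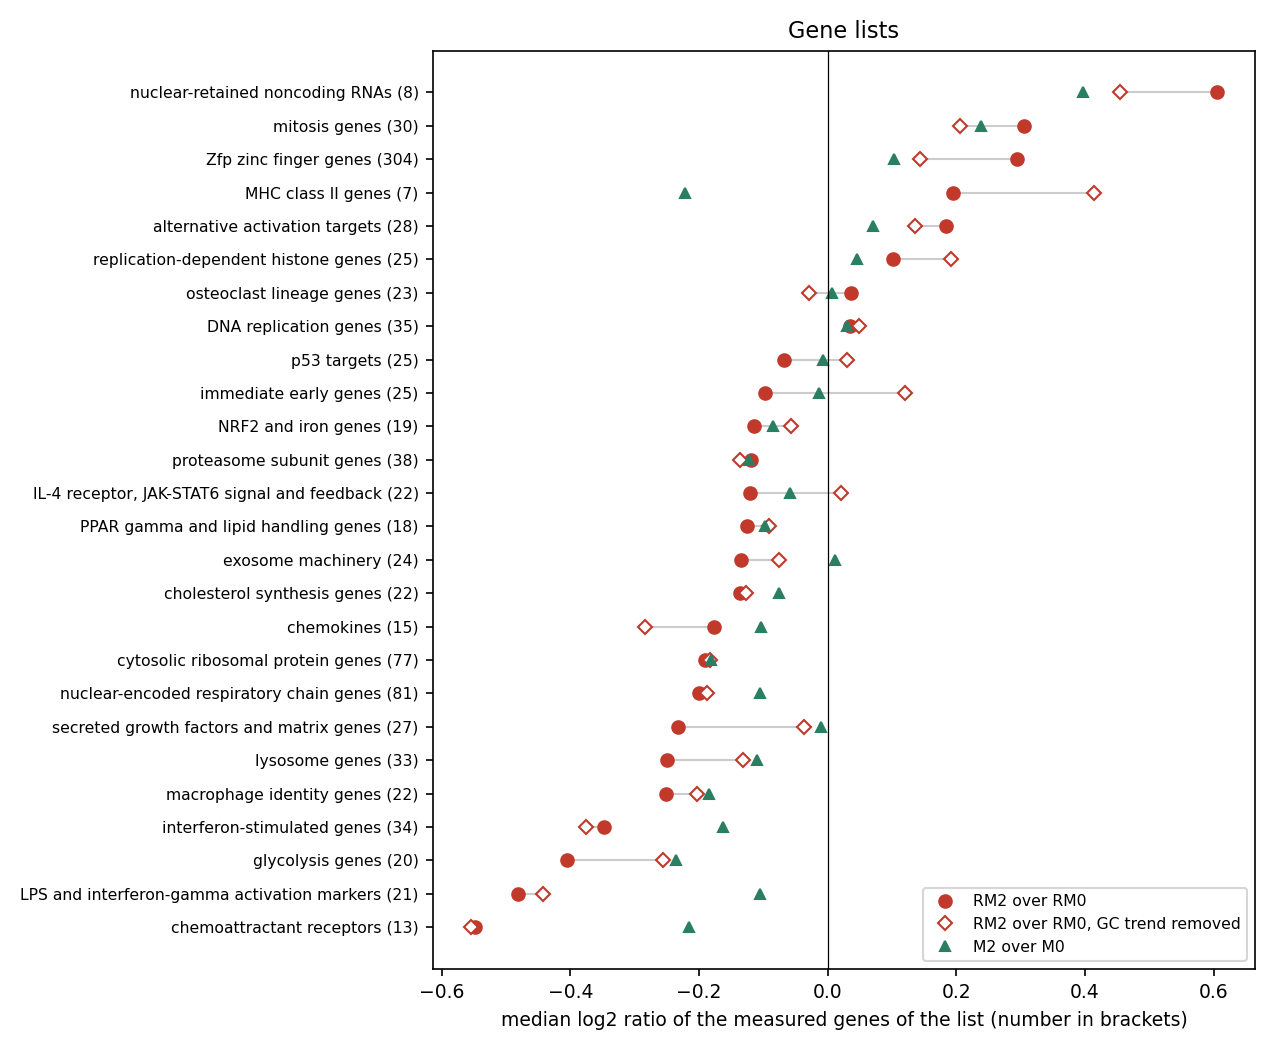
Median log2 ratio of each gene list with 7 or more measured genes, the number of genes in brackets. Red circles are RM2 over RM0, open diamonds the same with the GC trend removed and green triangles M2 over M0, and chemoattractant receptors, activation markers and glycolysis genes sit lowest while nuclear-retained noncoding RNAs sit highest.

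Most markers of other cells had few counts or none, with the exceptions given here. Of the neutrophil list only S100a8, which macrophages also make, was measured (6667 and 3492 counts), and its partner S100a9 had 2 counts in each library. The T and NK cell list held 1 measured gene, Lck, with 232 and 237 counts, and the dendritic cell list 1, Zbtb46, with 23 and 20. All fibroblast genes together had 226 counts in RM0 and 255 in RM2, most of them from Dcn (145 and 177), and the measured endothelial genes were Pecam1 (25 and 47) and Vwf (83 and 61). The part of such cells in the other results was not tested. B cell genes summed to 4 and 3 counts, and mast cell, basophil and eosinophil genes to 5 and 13.

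For an IL-4 term taken as common to irradiated and non-irradiated cells, a model with polarization and irradiation was fitted to all 6 libraries. The IL-4 term was tested by the quasi-likelihood method of edgeR with Benjamini-Hochberg adjustment. The model cannot tell whether an effect was shared, because it takes this as given. The irradiated and the non-irradiated pair stand in for replicates, which assumes the same effect in both and leaves 2 residual degrees of freedom. Of 11574 genes tested, 21 rose (0.181%) and 7 fell (0.0605%) with IL-4 at an adjusted p under 0.05. The term was smallest in p for Rnf19b (log2 2.09, adjusted p = 0.00103), and the next lowest included Arl4c (2.71, 0.00878), Il13ra2 (2.93, 0.00878), Adc (1.35, 0.00981) and Il1rl1 (1.45, 0.00981). Hbegf (2.19, 0.0187), Dock4 (0.90, 0.0187), Flrt2 (0.96, 0.0187) and Clec7a (1.33, 0.0232) came next. Arg1 was not among the genes tested, because it did not reach 10 counts in 3 libraries, and Igf1, at 2.55, had an adjusted p of 0.11.

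The other genes that rose included Il7r, Gm6793, the NF-kappa-B subunit gene Nfkb1, Slc7a2, the RNA sensor gene Tlr8, Cish, Malat1, Cd36, Ell2 and Ripk2. The 7 that fell were Selenbp1, Siglec1, Lst1, S100a8, the transglutaminase gene Tgm1, Cx3cr1 and Entpd1, the ectonucleotidase CD39. Those of these genes that are described nowhere above were named after their values were seen. With a GC trend removed from each library through an offset, 6 genes rose and none fell, against 21 and 7, with 766 genes at an unadjusted p under 0.05, and DESeq2 called 28 and 13. The 6 included Rnf19b, Arl4c, Adc, Il1rl1 and Dock4. Whether IL-4 acts differently after irradiation was not tested.

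The log2 ratio of RM2 over RM0 followed the GC content of the transcript, that is, the share of G and C among the bases of the gene's longest transcript in GENCODE M21. GC content was found for 11696 of the 11748 genes (99.6%). Across these genes Spearman's rho was -0.616, and the log2 ratio dropped by 0.33 for every 10 points of GC content. Genes are not independent replicates, and all points come from the same 2 libraries, so this is a description of those libraries. The genes were cut into deciles, 10 equal groups by GC content. In the decile with the lowest GC content (29.6% to 41.3%) the median log2 ratio was 0.39 and 91.1% of genes were above 0. In the decile with the highest (57.9% to 82.9%) the median was -0.31 and 12.1% were above 0. The medians of the deciles between, from low to high GC, were 0.26, 0.16, 0.10, 0.02, -0.05, -0.12, -0.18 and -0.23, so every step went down. The lowest decile held 61 genes 2-fold higher in RM2 and 1 lower, and the highest decile 9 and 26.

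**Figure D5:**
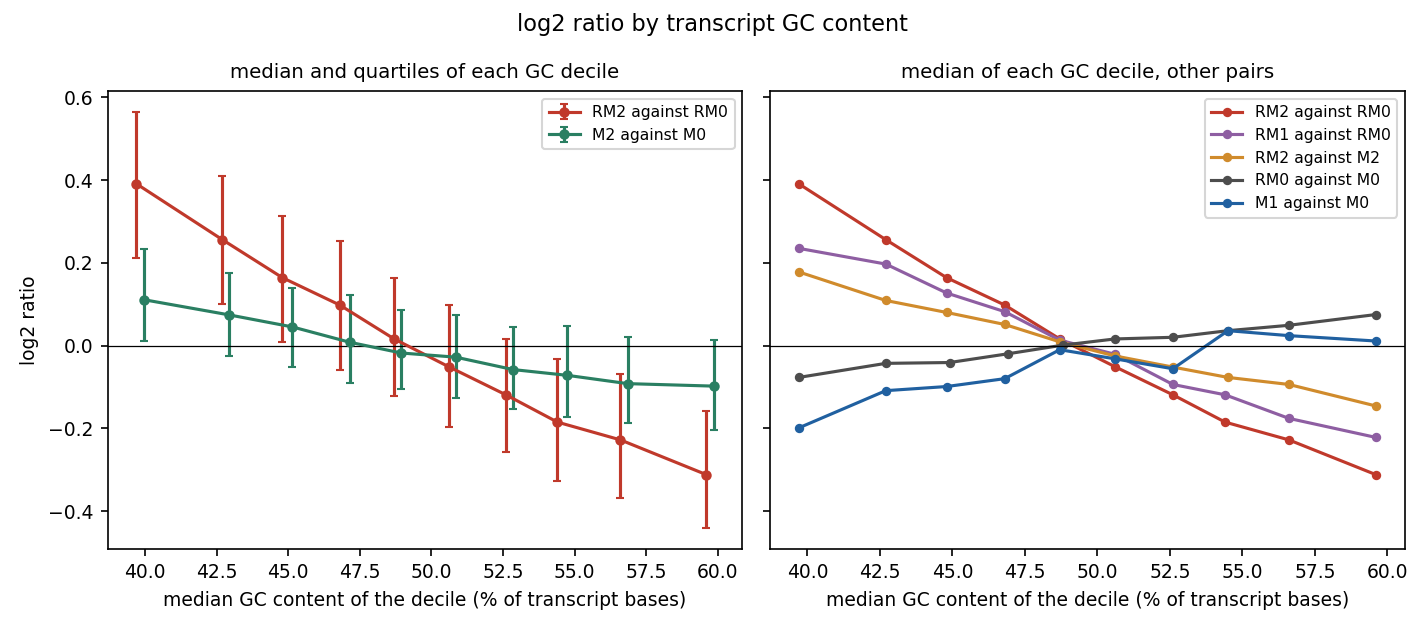
Median log2 ratio in each decile of transcript GC content, against the median GC content of the decile in percent. The left panel gives RM2 against RM0 (red) and M2 against M0 (green, moved slightly to the right) with quartiles as bars, the right panel medians of 5 pairs of libraries, and the red line falls from 0.39 to -0.31 while the green line falls from 0.11 to -0.10.

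The 3 genes with the most counts in each of these outer deciles have little counting error, and each lay on the same side of 0 as the median of its decile. In the lowest decile, Ptgs2 (cyclooxygenase-2) had 71098 counts in RM0 and 102108 in RM2 (log2 0.50), the tetraspanin gene Cd53 22319 and 25826 (0.19), and Cd36 8825 and 19929 (1.15). In the highest decile, Ftl1 (ferritin light chain) had 74365 and 68043 (-0.15), the endocytic receptor gene Lrp1 31224 and 24692 (-0.36), and the ribosomal protein gene Rpl8 26122 and 20823 (-0.35). Cd53 and Ftl1 fell short of the medians of their deciles (0.39 and -0.31). Cd36 was still at 0.73 once the GC trend was removed and was among the genes that rose in the IL-4 term, so its ratio does not stand for the trend alone. For each gene a stretch of 60 bases of its coding sequence is shown, the first in-frame stretch whose GC content is nearest to that of the whole transcript, with G and C in capitals so that the difference in base composition can be seen. The sequences come from GENCODE M21 (GRCm38). The transcripts hold 40.0% (Ptgs2), 40.0% (Cd53), 38.4% (Cd36), 58.1% (Ftl1), 57.9% (Lrp1) and 58.3% (Rpl8) G and C.
Ptgs2: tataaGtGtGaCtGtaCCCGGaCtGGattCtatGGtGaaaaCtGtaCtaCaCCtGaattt
Cd53: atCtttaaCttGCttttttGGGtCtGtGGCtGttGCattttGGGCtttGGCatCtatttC
Cd36: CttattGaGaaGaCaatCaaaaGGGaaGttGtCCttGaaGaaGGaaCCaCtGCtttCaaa
Ftl1: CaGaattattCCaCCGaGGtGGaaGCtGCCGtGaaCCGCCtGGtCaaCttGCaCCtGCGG
Lrp1: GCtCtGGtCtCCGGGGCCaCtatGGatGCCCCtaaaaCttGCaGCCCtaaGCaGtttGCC
Rpl8: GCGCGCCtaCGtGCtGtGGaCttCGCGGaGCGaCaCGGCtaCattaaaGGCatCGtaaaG

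The trend was present at all levels and lengths. The correlation was -0.739 when only the most counted of 3 equal groups of genes was taken, -0.72 in the middle group and -0.46 in the least counted, where counting error is largest. It was -0.657 for the longest of 3 groups of transcripts, -0.603 for the middle and -0.518 for the shortest. Protein-coding genes gave -0.631 (11081 genes) and long noncoding RNAs -0.264 (305 genes). The log2 ratio was also higher for longer transcripts, at a rho of 0.254, and with the length trend removed first the rho with GC content was -0.567. Weighted by counts, the mean GC content was 49.97% in RM0 and 49.29% in RM2, the lowest of the 6 libraries.

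The same measure was taken in the other pairs, several of which share RM0, RM2 or another library with the first, so their values are only set side by side. M2 against M0, which shares no library with RM2 against RM0, had a rho of -0.349 and a slope of -0.10 per 10 points, with 0.21 between the outer deciles in place of 0.70. RM1 against RM0 had a rho of -0.246 and a slope of -0.26, and RM1 against M1 -0.369 and -0.25. RM2 against M2 had -0.367 and -0.15. In cells without a polarizing agent the radiation difference had the other sign, at 0.223 and 0.08 for RM0 against M0, and M1 against M0 had 0.0646 and 0.06. A change in the cells and a difference in how the 2 libraries were made cannot be told apart here, because each condition has 1 library.

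Removal of the GC trend by a smooth curve put 48.4% of genes above 0 and left fewer genes past 2-fold, 145 higher (1.24% of 11696) and 91 lower (0.778%). Of the 184 higher genes with a GC value, 124 stayed past 2-fold, as did 78 of the 114 lower genes, none changed sign, and 21 higher and 13 lower genes were newly past it. The median GC content was 43.9% for the higher and 53.2% for the lower genes, beside 49.7% for all, and 108 of the 184 higher genes lay in the 3 lowest deciles while 57 of the 114 lower genes lay in the 3 highest. The highest genes kept most of their ratio, with Arg1 at 4.38 in place of 4.45, Arl4c at 2.91 in place of 2.80, Hbegf at 2.78 in place of 2.70 and Cish at 2.00 in place of 1.87. Il13ra2 moved from 3.53 to 3.08 and Clec7a from 1.73 to 1.38, both beyond their counting intervals. Members of the alternative activation list with small ratios moved in different ways. Tfrc went from 0.35 to -0.02, Il1rn from 0.28 to -0.02, Msr1 from 0.10 to -0.32 and Clec4a2 from -0.01 to -0.49. These 4 have transcripts of 36.8% to 41.6% GC. Others moved toward 0, such as Tgm2 from -0.275 to -0.043 and Tiam1 from -0.119 to -0.019.

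IL-4 was then compared side by side with and without irradiation. In M2 against M0, 117 of 11762 genes were 2-fold higher (0.995%) and 52 were lower (0.442%), fewer than the 192 and 114 in the irradiated pair. The GC trend was stronger in the irradiated pair, at 0.70 between outer deciles in place of 0.21. Without it the irradiated pair had 145 and 91, and no such count is given for M2 against M0. Higher in both pairs were 36 genes, 18.8% of those of RM2 against RM0 and 30.8% of those of M2 against M0, and lower in both were 12, 10.5% and 23.1%. Of the 192 genes, 144 were above 0 in M2 against M0, beside 47.3% of all measured genes. That share of all genes is not matched for GC content, since 108 of the 184 higher genes with a GC value lay in the 3 lowest deciles. In M2 against M0, 77.3%, 70.5% and 62.1% of the genes in the 3 lowest GC deciles were above 0. Across 11551 genes measured in both pairs rho between the log2 ratios was 0.534, and 0.426 with the GC trend removed from both. The GC trends of both pairs had the same sign. For the 9209 genes with 100 or more counts in all 4 libraries the values were 0.649 and 0.521.

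Several genes of the IL-4 program had a larger ratio in the irradiated pair. Clec7a, Hbegf and Il13ra2 were also named for their high ratios in that pair, which favors a smaller ratio in the other. Of the 192 genes 2-fold higher in RM2, 184 had the larger ratio in the irradiated pair. Clec7a had a log2 ratio of 0.89 in M2 against M0 (interval 0.73 to 1.06) and 1.73 in RM2 against RM0 (1.58 to 1.89), Hbegf 1.54 (1.15 to 2.01) and 2.70 (2.34 to 3.18), Il13ra2 2.17 (1.78 to 2.66) and 3.53 (3.14 to 4.09), and Cish 0.95 (0.61 to 1.34) and 1.87 (1.57 to 2.24). Their counting intervals did not overlap, whereas those of Arg1, Slc7a2, Arl4c, Egr2 and Clec10a did. Egr2 was at 1.02 and 1.06, and Clec10a at 1.19 and 1.27. Intervals of the 2 pairs did not overlap for 7 of 28 alternative activation genes, all with the higher ratio in the irradiated pair, and for 6 of 22 genes of the IL-4 signal chain, 1 with the higher and 5 with the lower ratio there, beside 18.2% of 11598 genes (1128 with the higher and 982 with the lower ratio in the irradiated pair). Of the 7, Il1rn, Msr1 and Tfrc were below 0 in the irradiated pair once the GC trend was removed. The 5 of the signal chain, Il4ra, Jak3, Ptpn6, Akt1 and Socs3, have transcripts of 54.9% to 61.0% GC. Without the GC trend their log2 ratios in the irradiated pair rose to -0.37, -0.32, -0.24, -0.04 and 0.33. The intervals leave out the spread between wells and cultures, and the difference between the pairs was not tested.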

How the data were processed

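RNA of RAW264.7 cells was sequenced in 6 libraries, 1 for each condition. The authors deposited raw read counts per gene. The submitters' processing notes name Trimmomatic 0.36, HISAT2 2.2.1, HTSeq 0.11.3 and mm10. No correction for base composition is given in the sources used here.

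Tables were joined on gene symbol and RefSeq identifier, and 27 symbols turned into dates were restored. TMM factors were computed over the 6 libraries with edgeR 4.0.16 (R 4.3.3). Log2 ratios used a prior count of 2, a minimum of 10 counts in 1 library and a limit of 2-fold. The IL-4 term was fitted by the edgeR quasi-likelihood test, adjusted by the Benjamini-Hochberg method, to genes with 10 counts in 3 libraries. DESeq2 1.42.0 was an alternative. The GC trend was removed by lowess (fraction 0.3, statsmodels 0.14.6) and the ratios were re-centred on their median. Scripts were tested on simulated data. Library depth was 17894937 to 18870516 counts, and intervals and limits cover counting error only.

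Named genes were the 12 highest and lowest with 50 counts, the 10 highest and lowest with 1000 counts, measured IL-4 signal and alternative activation genes, up to 4 genes of each other list farthest from 0, the 10 IL-4 term genes of lowest adjusted p, and the 3 genes with most counts in the outer deciles of GC content. Genes outside this rule were named as markers or to complete a count of calls. The genes, lists and rules were chosen with earlier results of these data known. The length correction of the counts of 2-fold genes was added after seeing the data. Some genes that the rule takes are not reported here, while the counts include them.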

Additional observations from a re-analysis of the deposited data

Results flagged for a closer look

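Scd4, a gene of the stearoyl-CoA desaturase family, ran in opposite directions in the 2 pairs of libraries. It had 43 counts in M0 and 116 in M2, a log2 ratio of 1.35 (counting interval 0.88 to 1.93), and 179 in RM0 and 29 in RM2, a log2 ratio of -2.56 (-3.27 to -2.08). Each pair has 1 library a condition, so the difference between the pairs was not tested. Its paralogs Scd1 and Scd2, which are far more abundant, were at -0.08 and 0.03 in the irradiated pair. At most 6.15% of the 25-base windows of its transcript occur in Scd1, Scd2 or Scd3, and how shared reads were counted was not tested.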

How the results depend on the processing

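The count of 2-fold higher and lower genes (192 and 114) depended on the limits chosen. With no minimum beyond 1 count it was 374 and 223, with 10 counts in both libraries 93 and 48, with 50 counts in 1 library 68 and 33, at 1.5-fold 730 and 464, and at 4-fold 25 and 9. A prior count of 5 left 65 lower genes. Scaling by library totals gave 240 and 94 and moved the median of all genes to 0.06. The rho with GC content stayed between -0.724 and -0.567, and the gap between outer deciles between 0.609 and 0.71, over the 7 alternatives run. Removal of the GC trend moved 88 of the named genes beyond their interval and 7 of 31 list medians. The IL-4 term, at 21 and 7, gave 33 and 12 with no minimum, 741 and 684 with M0, M2, RM0 and RM2 alone (1 residual degree of freedom), 6 and 0 with the GC offset, and 13 lower genes with DESeq2. Apart from the GC offset, the cause of these shifts was not tested beyond the changed number of genes or libraries. No paired analysis was possible because each condition has 1 library and the shared replicate number only names it. Leaving out RM0 or RM2 would leave no pair to compare, and leaving out M1 and RM1 is the fit of 4 libraries above. Genes with few counts have wide intervals at this depth.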

Other observations

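Besides Scd4, 3 genes were past 2-fold in opposite directions in the 2 pairs, all with few counts and named after their values were seen. Ccdc38 had 2, 17, 16 and 5 counts in M0, M2, RM0 and RM2, Clvs1 8, 22, 18 and 8, and Doc2a 3, 12, 20 and 5. The ribosomal protein gene Rps27a had 24486, 23260, 14362 and 23057 counts, so its log2 ratio of 0.66 in the irradiated pair goes with a low count in RM0, while 67 of the 77 ribosomal protein genes measured were below 0.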
